A study of Mus musculus with 2 samples.

Results

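The genes described here are 9 muscle genes of the heart, namely the troponin genes Tnnt2, Tnnc1 and Tnni1, the myosin light chain gene Myl4, the Z-disc genes Ldb3 and Pdlim5, the M-band gene Myom2, the myofibril assembly gene Smyd1 and the natriuretic peptide gene Nppb. They were chosen by name from the table of gene values, where all 9 were found among 10982 genes. RNA had been sequenced from mouse cells that the labels call neonatal cardiomyocytes, the beating muscle cells of the heart at birth. One library came from cells transfected with an antagomir to FERPIR, that is, an antisense oligonucleotide with stabilising chemistry against this piRNA (a class of short RNAs bound by PIWI proteins). The other came from cells transfected with a negative control, and the treatment field says PBS for each. The labels used here give no strain, exact age, dose or time after transfection. With 1 library per group there is no replicate check, no standard error and no test, and every value describes these 2 libraries only.

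The sarcomere is the contractile unit of striated muscle, in which myosin thick filaments slide along actin thin filaments anchored at the Z disc and cross-linked at the M band. Troponin sits on the thin filament as a complex of the tropomyosin-binding subunit T, the inhibitory subunit I and the calcium-binding subunit C, and switches contraction on when calcium binds. Each subunit has isoforms used in heart, slow muscle or fast muscle, and the heart before and around birth uses some that skeletal muscle also makes. B-type natriuretic peptide, the product of Nppb, is a hormone that heart muscle releases under load.

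Levels are in FPKM, which divides fragments by transcript length and by the total of the library, so they can be set side by side between genes. The 10982 genes summed to 312806 FPKM in the antagomir library and 295404 FPKM in the control library, and the median gene had 6.31 and 6.74 FPKM. Read numbers are unknown, because low values showed no common step of 1 read, and no counting interval can be given. The log2 ratio is log2 of (antagomir FPKM + 1) over (control FPKM + 1), folds are on the same scale, and both understate differences of low genes. Every gene of the table reached 0.5 FPKM in at least one library, so a gene that is lower than that in one had to be higher in the other. A gene without a value was not analysed here and is not read as low.

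The label was set against the data. Of 20 genes fixed as defining cardiomyocytes, 5 had values (Tnnt2, Tnnc1, Tnni1, Myl4 and Ldb3), all of them among the 9 genes, and they summed to 33.8 FPKM in the antagomir library and 9.13 FPKM in the control library. Myh6, Actc1, Actn2, Ttn, Ryr2 and Tnni3 were among the 15 without a value, which are not read as low. The sums of different lists therefore cannot be compared with each other. Of 12 skeletal muscle markers 8 had values, none of them at 0, with sums of 143 and 120 FPKM. They include the myogenic regulators Myf5 (14.9 FPKM in the antagomir library and 60.0 FPKM in the control library), Myod1 (16.9 and 15.9 FPKM) and Myog (8.78 and 3.38 FPKM), which define the skeletal lineage. Of 14 cardiac transcription factors 7 had values too. Among these were Nkx2-5 (16.4 and 13.7 FPKM) and Gata4 (5.41 and 8.30 FPKM), in the same order of libraries. The fibroblast list had values for 9 of 13 genes, with sums of 471 and 641 FPKM, and the smooth muscle list for 9 of 11, with sums of 1351 and 1735 FPKM. None of 9 endothelial markers had a value, nor did the leukocyte marker Ptprc. The genes are therefore called cardiac muscle genes by their known use in the heart, and not as evidence of which cells were sequenced; in bulk RNA, fewer cells of a type and less RNA per cell cannot be told apart.

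Sequence just before the start of transcription is shown for the members with the largest differences, Tnnt2 and Tnnc1, and for Nppb. These 3 are shown because they are the ones of 8 members in the promoter table whose window holds CATTCC. It is the core of the M-CAT element, the site of TEAD factors in muscle promoters. The 8 are all members but Myom2. The windows are from RefSeq on build GRCm38.p6, 250 bases before to 50 after an annotated start, written 5′ to 3′ on the gene's strand. For Tnnt2, which has 2 annotated windows, the first of the table is printed. Capitals mark the M-CAT core CATTCC on either strand. The Tnnt2 window is chr1:135836084-135836383, the Tnnc1 window chr14:31208062-31208361 and the Nppb window chr4:147985650-147985949, all on the plus strand.
Tnnt2: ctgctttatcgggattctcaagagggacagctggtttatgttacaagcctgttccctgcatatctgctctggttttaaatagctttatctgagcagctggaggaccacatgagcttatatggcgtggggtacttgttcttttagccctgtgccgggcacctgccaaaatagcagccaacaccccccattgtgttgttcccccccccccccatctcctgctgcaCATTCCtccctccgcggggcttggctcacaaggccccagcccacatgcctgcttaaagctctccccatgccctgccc
Tnnc1: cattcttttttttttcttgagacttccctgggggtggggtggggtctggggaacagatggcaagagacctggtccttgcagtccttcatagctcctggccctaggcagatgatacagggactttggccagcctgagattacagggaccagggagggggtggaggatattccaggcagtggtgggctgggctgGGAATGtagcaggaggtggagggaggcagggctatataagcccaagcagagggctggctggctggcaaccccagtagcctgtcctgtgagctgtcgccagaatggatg
Nppb: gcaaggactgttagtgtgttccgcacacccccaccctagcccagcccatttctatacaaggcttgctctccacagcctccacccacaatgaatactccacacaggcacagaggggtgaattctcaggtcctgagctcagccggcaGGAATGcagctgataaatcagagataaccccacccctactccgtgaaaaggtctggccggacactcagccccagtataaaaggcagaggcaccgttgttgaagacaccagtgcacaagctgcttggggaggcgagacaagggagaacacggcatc
The core begins 27 bases before the start in Tnnt2, 58 bases before it in Tnnc1 and 105 bases before it in Nppb. In Tnnc1 and Nppb it lies on the opposite strand. It was found in 3 of the 8 windows, and in 14.6% of 27025 promoter windows of the same length, 1 per gene. The E-box CAGCTG, the form that MyoD-type factors bind, was in 3 of 8 (Tnnt2, Tnni1 and Nppb) and in 16.1% of all windows. The GATA element AGATAA was in 2 of 8 (Tnnt2 and Nppb) and in 11.4%. The TATA box TATAAA was in 2 of 8 (Nppb and, on the opposite strand, Smyd1) and in 14.2%. Only these exact bases were counted, so other forms, such as tatataag in the Tnnc1 window, were not. A CArG box was in 1 of 8 (Ldb3) and in 1.57%, and no window held the MEF2 consensus, which 3.26% of all windows did. Both strands were searched for each, and none of the printed M-CAT cores overlaps a match of another motif. The higher genes Tnnt2 and Tnnc1 and the lower gene Nppb thus share the core CATTCC. The base that follows it is T in Tnnt2 and Nppb but C in Tnnc1. All matches are descriptions, not binding sites.

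In the antagomir library 6 of the 9 genes had higher FPKM and 3 had lower FPKM. The 3 troponin genes, Myl4, Ldb3 and Smyd1 were the higher ones, with sums of 34.9 FPKM in the antagomir library and 9.62 FPKM in the control library. Myom2, Pdlim5 and Nppb were the lower ones, with sums of 22.0 and 34.7 FPKM, and they were also the 3 with the highest control levels. At least 2-fold higher were 2 of 9, Tnnt2 and Tnnc1, against 2.88% of 10201 genes reaching 1 FPKM in the higher library, and none was 2-fold lower, against 3.79% of those genes. At least 1.5-fold higher were 4 of 9, against 10.8% of all genes, and at least 1.5-fold lower were 2 of 9, against 13.4%. The counts of the other gene lists given below are to be read beside these same shares. The median log2 ratio was 0.50 over the 9 genes and -0.05 over all 10201. The 9 genes were chosen with these values known, so the counts support nothing beyond the genes themselves. Over the 5 of them that reached 5 FPKM in the higher library the median was -0.32.

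**Figure D1:**
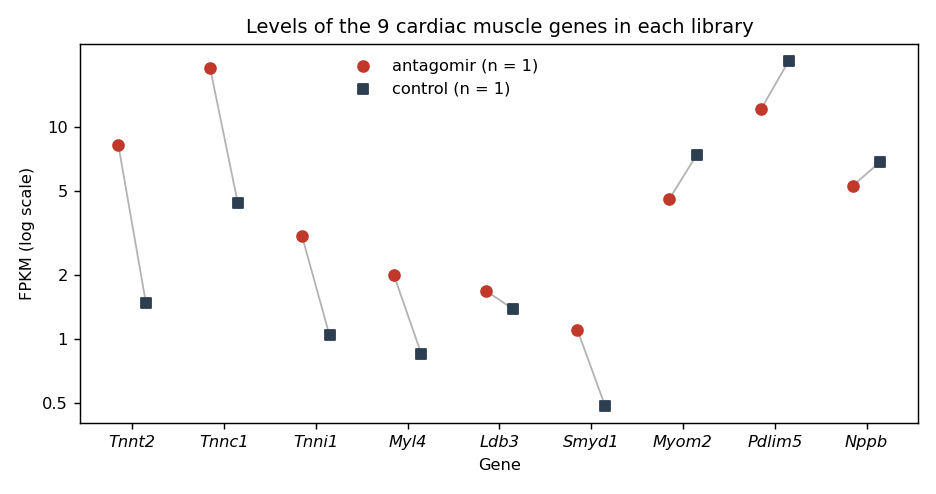
FPKM (log scale) of the 9 genes in the antagomir library (red circles, left) and the control library (dark squares, right), 1 library each, joined by a line per gene. The first 6 genes lie higher in the antagomir library, from 1.69 against 1.38 FPKM for Ldb3 to 18.9 against 4.39 FPKM for Tnnc1, and the last 3 lie lower.

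Tnnt2 encodes cardiac troponin T, which ties the complex to tropomyosin. It has the identifier ENSMUSG00000026414.13 and lies on the plus strand of chromosome 1 from 135836354 to 135852260, in build GRCm38. It had 8.19 FPKM in the antagomir library and 1.48 FPKM in the control library, a log2 ratio of 1.89 and a fold of 3.71. In the antagomir library 4744 genes had a higher level than Tnnt2, and in the control library 9321. It stood 14th from the top of the 10201 log2 ratios. It has 15 annotated transcripts, and the longest, at 3330 nucleotides, is a single exon, so the annotated length may not be that of the mRNA measured.

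Tnnc1 encodes the calcium-binding troponin C shared by heart and slow skeletal muscle. It is ENSMUSG00000091898.8, on the plus strand of chromosome 14 from 31208312 to 31211729, with 6 exons in a longest transcript of 721 nucleotides. Its level was 18.9 FPKM in the antagomir library and 4.39 FPKM in the control library, a log2 ratio of 1.88, next below Tnnt2 at rank 15. It was the highest of the 9 genes in the antagomir library, where Pdlim5 was next, and stood in the control library behind Pdlim5, Myom2 and Nppb.

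Tnni1 encodes slow skeletal troponin I, which is also the troponin I of the heart before birth. It is ENSMUSG00000026418.16 on the plus strand of chromosome 1, from 135779434 to 135810989. It had 3.06 FPKM in the antagomir library and 1.04 FPKM in the control library, and its fold of 1.99 lies just short of the 2-fold limit. As TPM, where values are larger and the same pseudocount of 1 weighs less, its log2 ratio was 1.25, past that limit. After centring, Tnni1 passed it with 1.04. Its gene ends 25365 bases before Tnnt2 begins, with no other gene that had a value between them. On its other side Phlda3, a p53 target, had 143 and 69.7 FPKM, 2.03-fold higher in the antagomir library, and beyond Tnnt2 Pkp1 had 15.3 and 23.7 FPKM, 1.52-fold lower. Among the 16 nearest genes with values beside the 9 genes, 1 was 2-fold higher (Phlda3) and 1 was 2-fold lower (Clcn6, beside Nppb), and their median log2 ratio was -0.13.

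Across the troponin family, 7 of 8 genes had values, all but Tnni3, and all 7 were higher in the antagomir library under each scaling tried. Of these 7, 6 passed 1.5-fold and 3 passed 2-fold, against 10.8% and 2.88% of all genes reaching 1 FPKM. The fast skeletal troponin genes were among them. Tnni2 had 9.07 FPKM in the antagomir library and 2.88 FPKM in the control library, 2.60-fold higher. Tnnc2 had 3.53 and 1.27 FPKM, a fold just under the 2-fold limit, and Tnnt3 had 3.11 and 1.79 FPKM, 1.47-fold higher. The slow skeletal gene Tnnt1 had 5.82 and 2.47 FPKM, 1.96-fold higher. Summed by subunit, troponin T had 17.1 FPKM in the antagomir library and 5.74 FPKM in the control library, troponin I had 12.1 and 3.91 FPKM, and troponin C had 22.4 and 5.65 FPKM. Tnnt2 made up 47.8% of troponin T FPKM in the antagomir library and 25.7% in the control library. Tnnc1 made up 84.3% and 77.6% of troponin C, and Tnni1 25.2% and 26.5% of troponin I, where Tnni2 made up the rest. The cardiac isoform was thus the highest troponin T gene in the antagomir library and the lowest in the control library, where Tnnt1 was the highest.

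**Figure D2:**
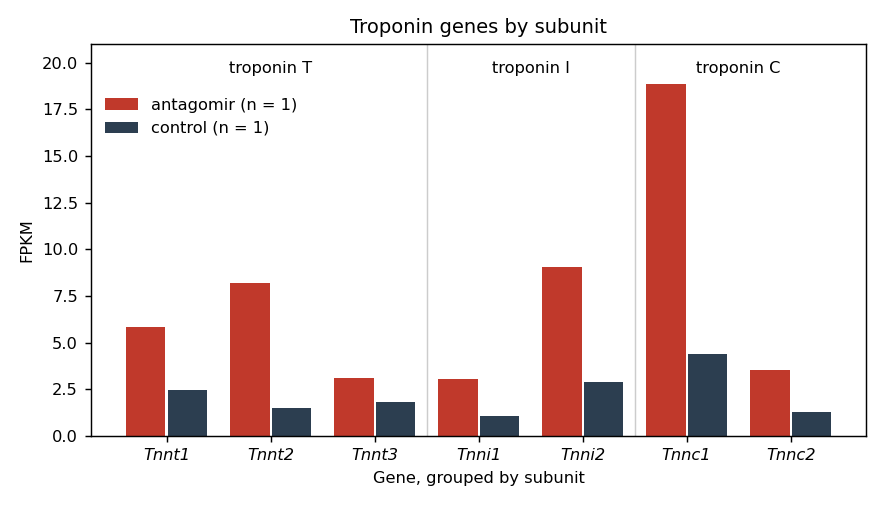
FPKM of the 7 troponin genes with values, grouped by subunit, in the antagomir library (red, left) and the control library (dark, right), 1 library each. All 7 bars are taller in the antagomir library, with the highest, Tnnc1, at 18.9 against 4.39 FPKM.

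Troponin transcripts are short, and log2 ratios were higher for shorter transcripts across the table, the median being 0.26 over the 2041 shortest genes and -0.20 over the 2039 longest. Once a fitted trend with length and GC content was subtracted, the log2 ratio was 1.39 for Tnnc1, 1.95 for Tnnt2 and 0.96 for Tnni1. With the length of the longest protein-coding transcript in its place, 1200 nucleotides for Tnnt2, it was 1.40, 1.62 and 0.69. All 7 troponin genes stayed above 0 in both, but 5 of 7 then passed 1.5-fold, Tnnc2 having come under that limit, and 2 of 7 passed 2-fold, Tnni2 having come under it. The shares over all genes were 8.49% and 1.83% with the first length, and 8.22% and 1.66% with the protein-coding one.

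Skeletal muscle markers differed alongside the troponin genes, and their part in these differences was not tested. Of the 8 with values, 5 were at least 1.5-fold higher in the antagomir library and 1 was lower, with a median log2 ratio of 0.86; Tnni2, Tnnc2 and Tnnt3 belong to this list too. Mylpf, the fast skeletal regulatory light chain, had 78.6 FPKM in the antagomir library and 30.1 FPKM in the control library, 2.56-fold higher. Myog, the regulator of myocyte differentiation, was 2.23-fold higher, and Actn3, the fast-fibre alpha-actinin, had 8.33 and 4.69 FPKM. With the fitted length and GC trend subtracted, Mylpf came to a log2 ratio of 0.90 and Myog to 0.95, both under the 2-fold limit. The list median was then 0.58. Myf5, a regulator of undifferentiated myoblasts, was 3.85-fold lower. Myod1 had a log2 ratio of 0.08, which turned negative as TPM and with the length trend removed. Among fibroblast markers 4 of 9 were at least 1.5-fold lower and 1 higher, from Ddr2 (3.56-fold lower) to Gsn (1.51-fold higher). Of the smooth muscle list 3 of 9 were at least 1.5-fold lower, Lmod1 being the lowest, and 1 was higher, Tagln at 2.02-fold. The macrophage markers Cd14 and Lyz2 (1.27-fold higher each), the globin genes Hba-a2 (1.96-fold) and Hba-a1 (1.12-fold), and 3 epicardial genes from Msln (1.63-fold lower) to Tbx18 (1.17-fold higher) were the other markers with values. With the length and GC trend subtracted, the log2 ratio was 0.85 for Tagln, 0.53 for Gsn, 0.30 for Hba-a2 and -0.40 for Hba-a1.

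**Figure D3:**
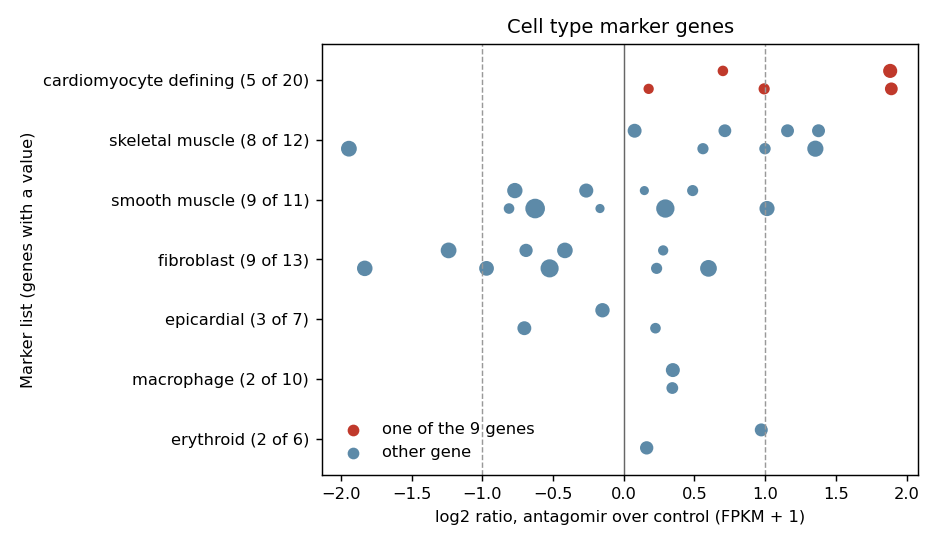
Log2 ratio (antagomir over control, FPKM + 1) of each marker gene with a value, one row per cell type list, with dot area growing with the higher of both levels and dashed lines at 2-fold. All 5 cardiomyocyte markers with values and 7 of 8 skeletal muscle markers lie above 0, while Myf5 lies at -1.94.

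Myl4 encodes the essential myosin light chain of the atria and of embryonic heart and skeletal muscle. It is ENSMUSG00000061086.12 on the plus strand of chromosome 11, from 104550663 to 104595753. It had 2.01 FPKM in the antagomir library and 0.85 FPKM in the control library, a log2 ratio of 0.70. With the longest protein-coding transcript used to remove the length trend, its log2 ratio was 0.32. It was the 1 gene with a value of the 11 in the thick filament list, so Myh6, Myh7, Myl2, Myl7 and Mybpc3 were not analysed here. Cdc27, on the side of lower coordinates, ends 43 bases before it and had 11.0 and 13.2 FPKM.

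In the thin filament list 14 of 19 genes had values, of which 7 were at least 1.5-fold higher and none 1.5-fold lower, with a median log2 ratio of 0.76. Of these 7, 6 are troponin genes. The other was Lmod3, which encodes a leiomodin that nucleates actin filaments, with 1.57 FPKM in the antagomir library and 0.34 FPKM in the control library, 1.92-fold higher. At that control level Lmod3 could be listed only by its antagomir level, so it had to come out higher. The tropomyosin genes were the abundant ones, with 91.8 and 61.4 FPKM for Tpm1 and 78.8 and 57.9 FPKM for Tpm2, below the 1.5-fold limit. With the fitted length trend subtracted Tpm1 came just past that limit, at 0.60, and Tpm2 stayed under it, at 0.35. The list median was then 0.55. Tpm3 had 65.8 and 73.1 FPKM. Skeletal actin Acta1 had 4.46 and 2.97 FPKM, and Tmod1, which caps the slow-growing filament end, had 2.62 and 3.85 FPKM, the lowest log2 ratio of the list at -0.42.

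Ldb3, also called Cypher or ZASP, encodes a Z-disc protein with a PDZ domain and LIM domains that binds alpha-actinin. It is ENSMUSG00000021798.14 on the minus strand of chromosome 14, from 34526603 to 34588682. It had 1.69 FPKM in the antagomir library and 1.38 FPKM in the control library, a log2 ratio of 0.18, the smallest difference among the 9 genes by either sign.

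Pdlim5, also called ENH, encodes a Z-disc scaffold of the same family that binds protein kinase C. It is ENSMUSG00000028273.15 on the minus strand of chromosome 3, from 142239590 to 142395696. Its level was 12.1 FPKM in the antagomir library and 20.4 FPKM in the control library, 1.63-fold lower and the lowest log2 ratio of the 9, -0.71. With the fitted length trend subtracted it came under the 1.5-fold limit, at -0.56. It was the highest of the 9 genes in the control library. The PDZ and LIM family went both ways, with 2 of 7 genes at least 1.5-fold higher and 1, Pdlim5, lower. Pdlim4 had 48.9 and 26.9 FPKM, 1.79-fold higher, and Pdlim2 had 24.5 and 13.1 FPKM, 1.81-fold higher. With the fitted length trend subtracted Pdlim4 came just under the 1.5-fold limit, at 0.58, and Pdlim2 stayed past it, at 0.80. Pdlim1 (24.9 and 29.5 FPKM), Pdlim7 (17.9 and 22.0 FPKM) and Pdlim3 (5.32 and 4.81 FPKM) were within the 1.5-fold limits. Pdlim1, Pdlim5 and Pdlim7 were thus lower in the antagomir library and the other 4 higher, except that Pdlim3 came to -0.01 when the length trend was subtracted with protein-coding transcripts.

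In the wider Z-disc list 16 of 26 genes had values, with 2 at least 1.5-fold higher, 2 lower and a median log2 ratio of 0.09. Both counts are near the shares over all genes reaching 1 FPKM, 10.8% higher and 13.4% lower. Flnc, the muscle filamin, had 17.8 FPKM in the antagomir library and 48.9 FPKM in the control library, 2.65-fold lower. Synpo2l, an actin-associated Z-disc protein gene, had 3.59 and 1.47 FPKM, 1.86-fold higher. Pdlim4 was the other higher one, though not with the length trend subtracted. Des, the intermediate filament gene that links Z discs, was the most abundant of the list, with 423 and 345 FPKM.

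Myom2 encodes M-protein, which cross-links myosin filaments at the M band of heart and fast muscle. It is ENSMUSG00000031461.4 on the plus strand of chromosome 8, from 15057653 to 15133541, with 37 exons in its longest transcript. It had 4.56 FPKM in the antagomir library and 7.39 FPKM in the control library, 1.51-fold lower. After centring on the median of all genes its log2 ratio came under the 1.5-fold limit, at -0.55, and with the fitted length trend subtracted it was -0.47. In the M-band and titin list 6 of 12 genes had values, and Myom2 was the single one past 1.5-fold. Obsl1, an M-band linker, had the highest log2 ratio, with 4.03 and 2.75 FPKM, a ratio of 0.42. Ankrd1, a stretch-responsive titin-binding repeat protein, had 518 and 644 FPKM, 1.24-fold lower, which is far above the level of every one of the 9 genes in either library.

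Smyd1 encodes a methyltransferase of heart and skeletal muscle needed for myofibril assembly. It is ENSMUSG00000055027.17 on the minus strand of chromosome 6, from 71213940 to 71322233. It had 1.10 FPKM in the antagomir library and 0.48 FPKM in the control library, the lowest level of the 9 genes in both. Being below 0.5 FPKM in the control library, it could enter the table only by its level in the other. Its log2 ratio was 0.50, and without a pseudocount the ratio of its FPKM values was 2.27. Its relatives Smyd3 (4.28 and 2.18 FPKM, 1.66-fold higher) and Smyd4 (13.3 and 6.38 FPKM, 1.94-fold higher) were past 1.5-fold, and Smyd2 (36.5 and 37.3 FPKM) and Smyd5 (5.04 and 6.04 FPKM) were not. Of 17 genes listed for myosin folding and myofibril assembly 16 had values, with a median log2 ratio of -0.05. None was 1.5-fold higher and 2 were 1.5-fold lower, Ube4b (1.58-fold) and Daam1 (1.56-fold). The count of 2 of 16 is near the share of 13.4% over all genes reaching 1 FPKM. With the fitted length trend subtracted both genes came under the limit, at -0.52 and -0.48. Hsp90aa1, a chaperone of myosin folding, had the third highest log2 ratio of that list, with 242 and 188 FPKM.

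Nppb is ENSMUSG00000029019.8 on the plus strand of chromosome 4, from 147985788 to 147987205, a gene of 3 exons and 1 annotated transcript of 781 nucleotides. It had 5.28 FPKM in the antagomir library and 6.86 FPKM in the control library, a log2 ratio of -0.32. It is as short as Tnnc1, and with the fitted length trend subtracted its log2 ratio was -0.72, past 1.5-fold lower. In the natriuretic peptide list 6 of 14 genes had values and none was past 1.5-fold in either direction. Ide, a protease that degrades such peptides, had the lowest log2 ratio, with 11.2 and 15.3 FPKM, and Npr3, the clearance receptor, the highest, with 0.80 and 0.71 FPKM. Furin, which cleaves the hormone precursor, had 4.79 and 5.19 FPKM, Npr2 had 0.78 and 0.88 FPKM and the kinase gene Prkg2 had 27.7 and 29.3 FPKM. Nppa, the atrial peptide gene beside Nppb, was not analysed here. In the list of genes induced by load, 5 of 8 had values, none past 1.5-fold, from Nppb at the low end to Acta1 at 1.38-fold higher.

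**Figure D4:**
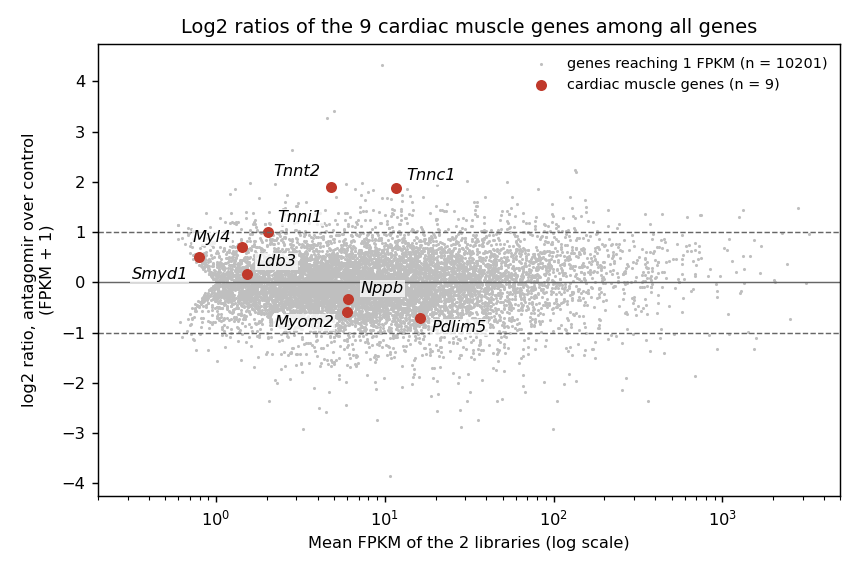
Log2 ratio (antagomir over control, FPKM + 1) against the mean FPKM of both libraries (log scale) for 10201 genes reaching 1 FPKM (grey) and the 9 cardiac muscle genes (red), with dashed lines at 2-fold. Tnnt2 at 1.89 and Tnnc1 at 1.88 lie beyond the upper line, Tnni1 at 0.99 lies just under it, and the other 6 lie between the lines.

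Of the cardiac transcription factors that act on such genes, 7 of 14 had values, none 1.5-fold higher and 1 lower, with a median log2 ratio of -0.06. Over all genes reaching 1 FPKM the shares were 10.8% higher and 13.4% lower, so a count of 1 of 7 lower is near its share. The lower one was Tead1, a factor that binds M-CAT elements, with 0.43 FPKM in the antagomir library and 1.79 FPKM in the control library, a log2 ratio of -0.97, whereas its relative Tead4 had 1.96 and 2.08 FPKM. At that antagomir level Tead1 could be listed only by its control level, so it had to come out lower. Mef2a had the highest log2 ratio, 0.51, with 4.06 and 2.55 FPKM. With the fitted length trend subtracted Mef2a came to 0.66, past 1.5-fold higher, and the list median to -0.21. Gata4 had 5.41 and 8.30 FPKM, and Nkx2-5 had 16.4 and 13.7 FPKM, with a log2 ratio of 0.24 but -0.21 once the length trend was subtracted; both were chosen after their values were seen.

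The genes most like Tnnt2 in both levels, by distance in log2(FPKM + 1) over the 2 libraries, were Hist1h2ad (distance 0.08, with 8.47 and 1.60 FPKM), Ccnd3 (0.22, with 8.36 and 1.89 FPKM) and Fam107b (0.32, with 9.98 and 1.81 FPKM). Those most like Tnnc1 were Adprhl2 (0.06, with 19.1 and 4.59 FPKM), 2610001J05Rik (0.16, with 17.1 and 4.70 FPKM) and Dbndd2 (0.20, with 16.4 and 4.42 FPKM). Over 2 libraries this says only that both levels are alike, and none of the 6 is a sarcomere gene of the lists. No exon of the 9 genes overlapped an exon of another annotated gene, except for 3 bases that Myl4 shares with Gm22000 on the opposite strand, and all 9 loci had the same start, end and identifier version in GENCODE release M21.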

How the data were processed

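Gene-level FPKM values of 2 libraries, 1 per group, were used as deposited by the authors. Per the submitters' processing notes they came from cutadapt, HISAT2 and StringTie 1.3.3 on build GRCm38; the sources used here state no annotation release, settings or strand use. Per the labels' protocols, polyadenylated RNA was made into libraries with a stranded kit, and the same protocol lists adaptor ligation at both ends, so the library type is not settled. Groups came from the sample titles and columns from the library names.

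The table had 10992 lines, all protein coding; FPKM of 10 repeated symbols were summed. The pseudocount was 1, and no test was possible. Transcript length and GC content came from the longest GENCODE M21 transcript (10982 lines matched); their trend was a quadratic surface over genes reaching 1 FPKM. Python 3.11.15, pandas 2.3.3, numpy 2.4.6 and matplotlib 3.10.9 were used, and the scripts were tested on simulated data. The genes, lists and motifs were chosen with earlier results of these data known. Named were all 9 genes, the highest and lowest of each list reaching 1 FPKM, any 2-fold apart, sarcomere and natriuretic peptide genes with values, genomic neighbours and the 3 genes most like Tnnt2 and Tnnc1; other names were chosen after their values were seen. Alternatives were other pseudocounts, minima, scalings and removal of the length and GC trend.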

Additional observations from a re-analysis of the deposited data

How the results depend on the processing

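None of the 9 log2 ratios changed sign under the 9 alternatives. Of these, 8 were planned and 1, removal of the length trend with the longest protein-coding transcript, was chosen after seeing the data. Another pseudocount or minimum cannot change a sign, so only the rescalings, the centring and the trend removals could have done so. The rescalings keep the pseudocount of 1 on larger values, where it weighs less on low genes. The count of genes at least 2-fold higher was 5 with a pseudocount of 0.1 and 5 with 0.01, Tnni1, Myl4 and Smyd1 having passed the limit, while the share over all genes was 4.82% and 5.14%. It was 3, with Tnni1, as TPM, with totals that leave out 3 gene families and after centring, where that share was 3.43%, 3.85% and 3.42%. It was 2 under the other alternatives, where the share was 1.66% to 3.37%. None was 2-fold lower under any, against 3.34% to 6.78% of all genes. The count at least 1.5-fold higher was 5, with Smyd1, under both pseudocounts and both rescalings (10.5% to 14.5% of all genes). It was 2 at a minimum of 5 FPKM, which leaves 5 genes (12.5%), and 4 otherwise (8.22% to 12.3%). The count at least 1.5-fold lower was 1 after centring on the median (Pdlim5), 1 with the fitted length and GC trend subtracted (Nppb) and 1 with the protein-coding transcript in that removal (Nppb). The share over all genes in these settings was 11.6%, 12.5% and 12.4%, so a count of 1 of 9 is near it. The median log2 ratio, 0.50 as reported, was 1.04 and 1.17 with pseudocounts of 0.1 and 0.01, 0.78 as TPM, 0.84 without the families (mitochondrially encoded, hemoglobin and ribosomal protein genes), 0.55 after centring, 0.57 and 0.34 with the trend removed by either length, and turned to -0.32 at a minimum of 5 FPKM, where Tnni1, Myl4, Ldb3 and Smyd1 drop out. Among genes averaging under 10 FPKM, a background chosen after seeing the data, 2.15% were at least 2-fold higher. No paired analysis was possible because each group has 1 library, and for the same reason no library could be left out. The depth is unknown, so it cannot be said how far 5 genes below 2 FPKM in the control library are limited by their read numbers.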

Other observations

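A list of 25 genes of skeletal muscle differentiation was chosen after the values of Myod1, Myf5 and Myog were seen, and 19 of them had values. At least 1.5-fold higher in the antagomir library were 7 of 19, against 10.8% of all genes reaching 1 FPKM. At least 1.5-fold lower were 3 of 19, near the share of 13.4% over those genes, and the median log2 ratio was 0.09. Among the higher ones, Mymx (0.09 FPKM in the control library) and Klhl41 (0.33 FPKM) could be listed only by their antagomir level. Hes6, a bHLH gene of differentiating myoblasts, had 26.3 FPKM in the antagomir library and 7.41 FPKM in the control library, 3.25-fold higher. Myl1, the fast skeletal essential light chain, had 27.2 and 9.87 FPKM, 2.59-fold higher, and Klhl40, a thin filament stabiliser, had 2.71 and 0.73 FPKM, 2.15-fold higher. With the fitted length and GC trend subtracted, Klhl40 came to a log2 ratio of 0.97, under the 2-fold limit, and Myl1 to 1.10. The 3 lower genes all encode subunits of the muscle acetylcholine receptor, namely Chrnd (2.59 and 6.18 FPKM, just under the 2-fold limit), Chrna1 (28.0 and 48.6 FPKM, 1.71-fold lower) and Chrnb1 (13.5 and 20.8 FPKM, a log2 ratio of -0.59). Chrnd came to -1.01 with the fitted trend subtracted, just past 2-fold lower. Cdh15, the muscle cadherin, had 35.4 and 43.8 FPKM, and Mymk, needed for myoblast fusion, had 5.24 and 6.03 FPKM.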
